A study of Mus musculus with 6 samples.

Results

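The 31 genes described here cover cholesterol metabolism in mouse cells. They are 19 enzymes of synthesis, 5 genes of the SREBP control system, 3 of uptake and intracellular transport, 1 of storage and 3 of export and its control. They were taken by symbol from the 15898 genes of the deposited count table. All 31 were listed, and all passed edgeR's filter on low counts. The cells were PMEL CD8+ T cells, whose transgenic receptor (Tg(TcraTcrb)8Rest/J, on mice of the strain B6.Cg-Thy1a/Cy) recognises the melanocyte antigen gp100. The IL-10/Fc group had 4 libraries, from B16F10 melanomas whose surroundings were injected with interleukin-10 joined to an antibody Fc part, at a dose of 20 µg. The PBS group had 2 libraries, from melanomas injected likewise with phosphate-buffered saline. C57BL/6 hosts of both groups had been irradiated with 4 Gy and had received 2000000 naive Thy1.1+ PMEL cells before the tumour cells. From day 10 both groups were given 5000000 activated Thy1.2+ PMEL cells and 4 injections, and the Thy1.1+ cells positive for both PD-1 and TIM-3, which mark exhaustion, were sorted out on day 18, with 500 cells to a library. No source used here gives the age of the animals.

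Cells build cholesterol from acetyl-CoA through mevalonate, isoprenoid pyrophosphates and squalene. When sterols in the endoplasmic reticulum are scarce, SCAP escorts the SREBP factors to the Golgi, where they are cleaved and released to activate synthesis genes, and when sterols are plentiful the INSIG proteins hold SCAP back. Oxysterols activate the LXR receptors, which switch on the exporters ABCA1 and ABCG1, and SOAT enzymes esterify surplus cholesterol for storage. In CD8+ T cells membrane cholesterol is known to influence receptor clustering, and synthesis is known to be switched on when T cells are activated and divide.

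Counts per library were 28235203 to 36941814 in IL-10/Fc and 26738871 and 28774401 in PBS, over the listed genes. Markers of the sorted cells (Cd3e, Cd3d, Cd8a, Cd8b1, Thy1, Pdcd1 and Havcr2) summed to 8141 to 9263 CPM, which are counts scaled to a common library total, in IL-10/Fc and to 5208 and 6814 CPM in PBS, and each of these genes was counted in each library. Cd8a, a chain of the CD8 coreceptor, had 2896 to 3161 CPM in IL-10/Fc, against 910.4 and 2292 CPM in PBS. Pdcd1, the gene of PD-1, was lower in every IL-10/Fc library, at 700 to 1112 CPM against 1578 and 1286 CPM in PBS. A list of 18 macrophage and monocyte markers summed to 713, 1052, 1398 and 1430 CPM in IL-10/Fc replicates 1 to 4, against 596 and 681 CPM in PBS. Ccr2 alone gave 460, 467, 260 and 308 CPM of these sums in IL-10/Fc, and 360 and 189 CPM in PBS. The macrophage sums given below include Ccr2. Of the 17 of these markers that were tested, 16 lay higher, where 49.3% of all genes stood. On the higher side 5 passed at an unadjusted p under 0.05 by edgeR, where 7.20% of all genes stood. None of the 18 was at 0 in all libraries. Of 10 dendritic cell and MHC class II genes, 7 were listed, and they summed to 172, 651, 1915 and 1011 CPM in IL-10/Fc, against 228 and 310.3 CPM in PBS. Of these 7, 5 lay higher and 2 lower, with a median log2 fold change of 2.11. By edgeR 1 passed at an unadjusted p under 0.05, Zbtb46 on the lower side, where 5.52% of all genes stood. A list of 10 DNA replication genes summed to 1023, 1238, 1560 and 1191 CPM in IL-10/Fc, against 1439 and 1679 CPM in PBS. Of these 10, 9 lay lower and 1 higher, with a median log2 fold change of -0.37. On the lower side 2 passed at an unadjusted p under 0.05 by edgeR, where 5.52% of all genes stood. The part of these differences in the results below was not tested. In such bulk libraries, fewer cells of a type and less RNA per cell cannot be told apart.

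The comparison asks how IL-10/Fc altered cholesterol genes of exhausted cells. The enzymes of synthesis did not move together. Hmgcs1, Sqle, Mvk and Acat2, and the control gene Insig1, were lower in all 4 IL-10/Fc libraries than in either PBS library. Lss, Tm7sf2 and Ebp were higher in all 4, and the other enzymes of the pathway overlapped between groups. The esterifying enzyme Soat1 and the exporter Abcg1 were higher in all 4 IL-10/Fc libraries, and Abca1 was counted in IL-10/Fc alone. By edgeR's quasi-likelihood test, none of the 31 was called at a Benjamini-Hochberg adjusted p under 0.05 over the 15477 genes tested, and the adjusted p ranged from 0.270 to 0.999. The background of that call is 0.00646% of genes, which is 1 gene.

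At an unadjusted p under 0.05 by the same test, 8 of the 31 genes passed, or 25.8%, against 12.7% of all genes tested. They were Soat1, Abca1, Lss, Npc2 and Ebp on the higher side, 5 genes where 7.20% of all genes stood, and Sqle, Hmgcs1 and Acat2 on the lower side, 3 genes where 5.52% of all genes stood. Scaled by library size alone, 8 also passed, but as 3 higher and 5 lower, against 4.21% and 10.6% of all genes: Ebp and Npc2 dropped out, and Insig1 and Cyp51 came in on the lower side. With single libraries left out fewer passed. Without PBS replicate 2, 4 passed (12.9%), against 13.9% of all genes, so that the share was no larger than the background. It was likewise 4 without PBS replicate 1 or IL-10/Fc replicate 2, against 9.44% and 11.6% of all genes. Without IL-10/Fc replicates 1 or 4, 5 passed (16.1%), against 11.1% and 9.86%, and 6 (19.4%) without IL-10/Fc replicate 3, against 11.6%. Npc2 stayed under the limit in 2 of these 6 fits and Ebp in 1. The 2 groups did not overlap in 12 of the 31 (38.7%), against 23.6% of all genes. Of these, 7 were higher, where 12.1% of all genes stood, and 5 lower, where 11.5% stood. Over all 31, the log2 fold changes split into 15 above and 16 below 0, with a median of -0.03 beside -0.01 over all genes. At an adjusted p under 0.05 in the authors' deposited table, 3 of the 31 were called, against 5.30% of all listed genes: Soat1 and Abca1 on the higher side (3.57% of all) and Sqle on the lower side (1.72%). DESeq2's Wald test on the same counts called 2, Soat1 and Abca1, where it called 5.06% of all genes with an adjusted p (3.44% higher and 1.62% lower).

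**Figure D1:**
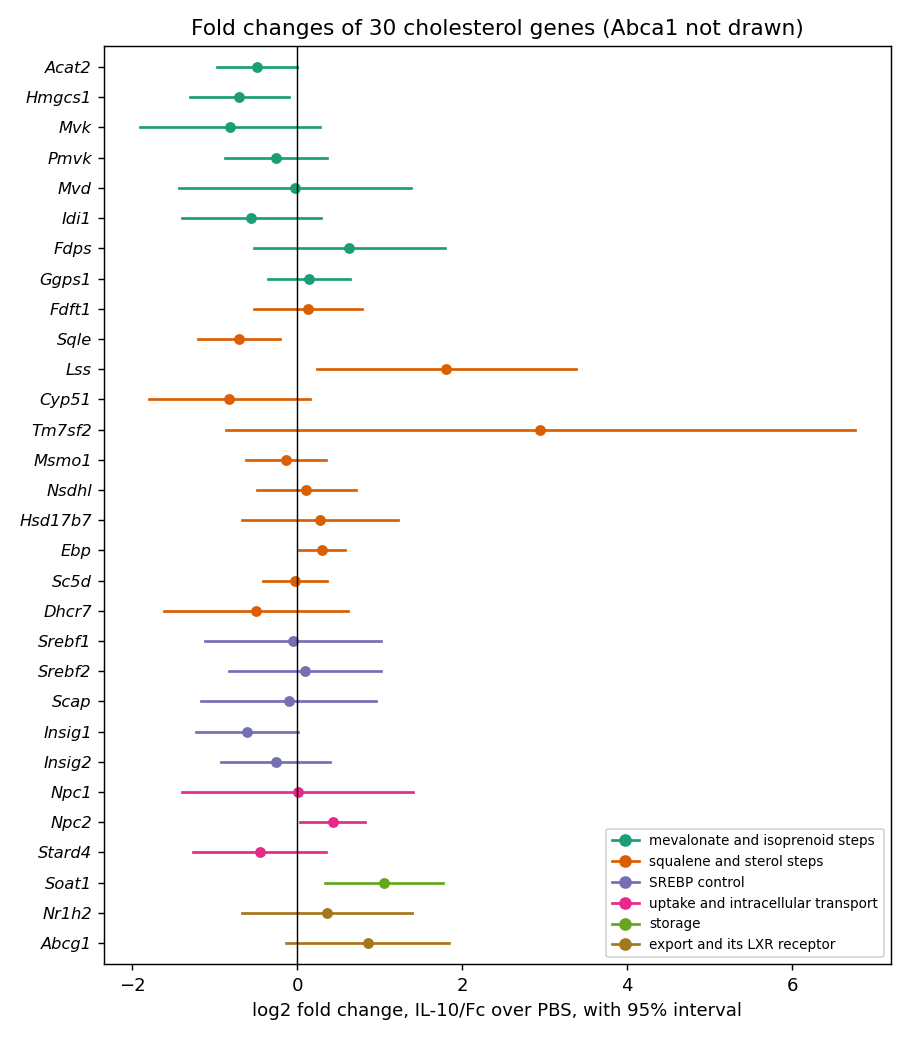
Log2 fold change (IL-10/Fc over PBS, horizontal axis) of 30 of the genes, coloured by role, with the 95% interval from edgeR's fit as a line. The intervals of Acat2, Hmgcs1 and Sqle lie below 0 and those of Lss, Ebp, Npc2 and Soat1 above 0. Abca1, at 0 counts in both PBS libraries, is not drawn.

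The 8 genes of the mevalonate and isoprenoid steps split into 6 lower and 2 higher, at a median log2 fold change of -0.38. The median was -0.61 without PBS replicate 1 and -0.20 without PBS replicate 2. Their summed level was 179 ± 29.1 CPM in IL-10/Fc (SD, n = 4) and 218 ± 25.2 CPM in PBS (SD, n = 2), and the sums overlapped. Hmgcs1 (chromosome 13, 119690462 to 119708086 in GRCm38), which joins acetoacetyl-CoA and acetyl-CoA to HMG-CoA, had 20.9, 20.6, 32.7 and 19.6 CPM in IL-10/Fc, against 37.6 and 38.7 CPM in PBS. All 4 IL-10/Fc libraries lay below both PBS libraries, with replicate 3 nearest to them. The log2 fold change was -0.70 (SE 0.25, 95% interval -1.30 to -0.11, adjusted p = 0.341 by edgeR's quasi-likelihood test). It grew to -0.90 when IL-10/Fc replicate 3 was left out, and the unadjusted p was over 0.05 when any other single library was.

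Acat2 (chromosome 17, 12942890 to 12960747), the cytosolic thiolase that makes acetoacetyl-CoA, had 34.4, 38.1, 46.4 and 52.2 CPM in IL-10/Fc, against 55.5 and 64.9 CPM in PBS. These groups did not overlap either. Its log2 fold change was -0.49 (SE 0.20, adjusted p = 0.390 by edgeR), and the unadjusted p was over 0.05 when any library but IL-10/Fc replicate 4 was left out. Its counts are uncertain, since 39.1% of the 50-base words in its transcripts also occur in those of its neighbour Acat3, a near copy. Acat3 itself had 2.51 to 6.64 CPM in IL-10/Fc, against 10.1 and 11.7 CPM in PBS. Mvk (chromosome 5, 114444269 to 114460591), mevalonate kinase, had 2.98, 4.15, 5.91 and 8.78 CPM in IL-10/Fc, against 9.04 and 10.2 CPM in PBS. The highest IL-10/Fc library lay just under the lower PBS library. On the log2 scale the change was -0.82 with an interval of -1.91 to 0.27 (adjusted p = 0.513 by edgeR).

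The other enzymes of this stretch overlapped between groups. Phosphomevalonate kinase (Pmvk) averaged 30.7 ± 7.60 CPM in IL-10/Fc (SD, n = 4) and 36.8 ± 1.91 CPM in PBS (SD, n = 2). Idi1, the isomerase of isopentenyl pyrophosphate, averaged 8.35 ± 2.23 and 12.3 ± 3.90 CPM in IL-10/Fc and PBS. Mevalonate pyrophosphate decarboxylase (Mvd) averaged 6.63 ± 3.12 CPM in IL-10/Fc and 6.76 ± 4.86 CPM in PBS, the PBS pair lying at 3.33 and 10.2 CPM. Of the prenyl transferases, Fdps, which makes farnesyl pyrophosphate, averaged 8.68 ± 3.12 CPM in IL-10/Fc and 5.61 ± 2.93 CPM in PBS. Ggps1, which makes the geranylgeranyl pyrophosphate used to prenylate small GTPases, averaged 53.0 ± 9.93 CPM in IL-10/Fc and 48.1 ± 3.39 CPM in PBS. Its interval ran from -0.35 to 0.64 on the log2 scale, which bounds a change in either direction more tightly than for Mvd (-1.44 to 1.38). Fdps and Idi1 share 26.2% and 25.3% of their 50-base words with other annotated genes, so their counts are less certain.

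**Figure D2:**
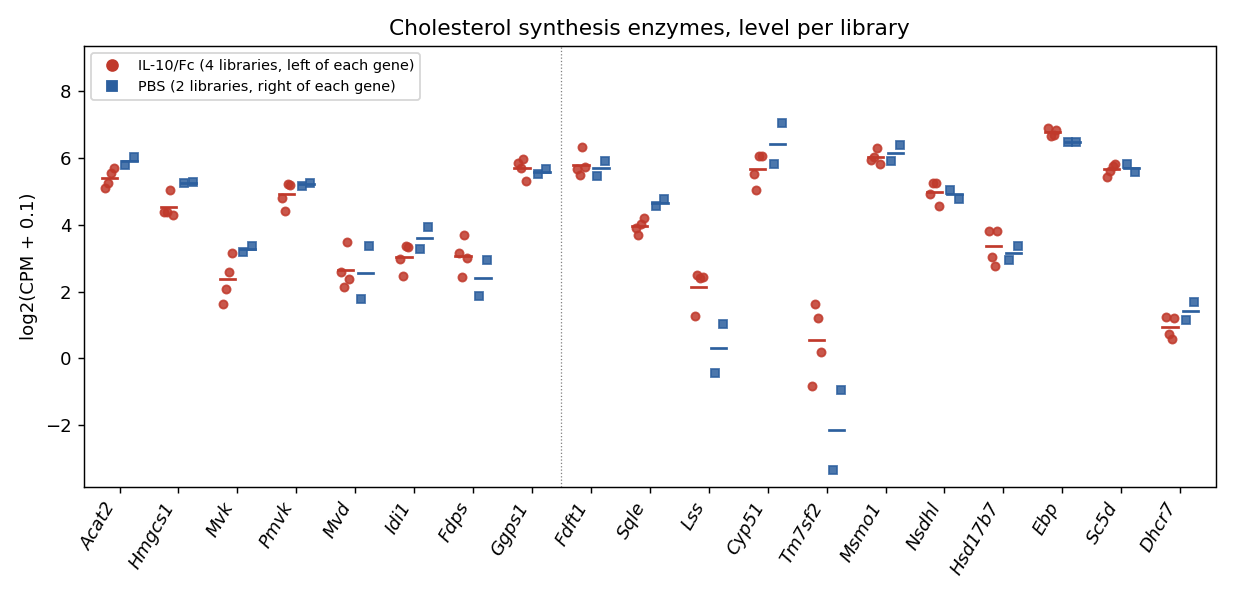
Level of the 19 synthesis enzymes in pathway order, as log2(CPM + 0.1), each point a library and each bar the mean of the logs. The dotted line parts the mevalonate and isoprenoid steps from the squalene and sterol steps. Acat2, Hmgcs1, Mvk and Sqle have all 4 IL-10/Fc points below both PBS points, and Lss, Tm7sf2 and Ebp have them above.

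In the squalene and sterol stretch, 6 of 11 genes lay higher and 5 lower, with a median log2 fold change of 0.11. That median was below 0 under some settings: -0.062 with library-size scaling, -0.11 with the replicate block and -0.062 without IL-10/Fc replicate 3. The summed level was 401 ± 39.0 CPM in IL-10/Fc (SD, n = 4) and 426 ± 77.5 CPM in PBS (SD, n = 2). Sqle (chromosome 15, 59315077 to 59331192), squalene epoxidase, a rate-limiting enzyme of the pathway, had 14.7, 12.9, 16.1 and 18.1 CPM in IL-10/Fc, against 23.3 and 27.3 CPM in PBS. Every IL-10/Fc library was below both PBS libraries. The log2 fold change was -0.71 (SE 0.21, 95% interval -1.21 to -0.21, adjusted p = 0.272 by edgeR), with leave-one-out values of -0.82 to -0.59. In the authors' deposited table Sqle was called lower (log2 fold change -0.71, adjusted p = 0.0461), whereas the DESeq2 refit gave an adjusted p of 0.0719. With PBS replicate 2 left out, edgeR's unadjusted p was over 0.05.

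Lss (chromosome 10, 76531588 to 76557138), lanosterol synthase, catalyses the step after Sqle and lay on the other side. It had 2.31, 5.51, 5.15 and 5.30 CPM in IL-10/Fc, against 0.645 and 1.96 CPM in PBS. The groups did not overlap, although IL-10/Fc replicate 1 was close to PBS replicate 2. Its log2 fold change was 1.81 (SE 0.65, adjusted p = 0.347 by edgeR). Leaving out PBS replicate 2 gave 2.82 and leaving out PBS replicate 1 gave 1.22, and the unadjusted p stayed under 0.05 only without PBS replicate 2 or IL-10/Fc replicate 1. Tm7sf2, one of the sterol C14 reductases, was counted at 0.469, 2.96, 2.197 and 1.05 CPM in IL-10/Fc, against 0 and 0.425 CPM in PBS. Its fold change was poorly bounded (log2 interval -0.86 to 6.76), and 532 of its exonic bases are shared with Vps51. Ebp (chromosome X, 8185329 to 8193512), the sterol isomerase also known as emopamil binding protein, had 119, 100.2, 103 and 114 CPM in IL-10/Fc, against 88.6 and 88.7 CPM in PBS. All 4 IL-10/Fc libraries were above the PBS pair by a small margin, at 0.30 on the log2 scale with an interval of 0.02 to 0.58 (adjusted p = 0.373 by edgeR).

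Lanosterol demethylase (Cyp51, chromosome 5, 4081145 to 4104746) had 46.1, 32.9, 66.1 and 65.9 CPM in IL-10/Fc, against 56.5 and 130.7 CPM in PBS. The gap rested on PBS replicate 2: the log2 fold change was -0.83 over all libraries (adjusted p = 0.468 by edgeR) and -0.10 without that library. The remaining enzymes overlapped between groups. Squalene synthase (Fdft1) averaged 57.0 ± 15.4 CPM in IL-10/Fc (SD, n = 4) and 52.3 ± 11.7 CPM in PBS (SD, n = 2), and 774 of its exonic bases overlap the abundant protease gene Ctsb on the opposite strand. The C4 demethylation enzymes Msmo1, Nsdhl and Hsd17b7 averaged 65.3 ± 9.78, 32.4 ± 7.16 and 10.7 ± 3.82 CPM in IL-10/Fc, against 71.8 ± 17.04, 30.02 ± 4.19 and 8.87 ± 1.78 CPM in PBS. Sc5d, the sterol C5 desaturase, was the most tightly bounded of them, at 50.5 ± 5.96 CPM in IL-10/Fc and 51.6 ± 6.13 CPM in PBS, with an interval of -0.42 to 0.36 on the log2 scale. Dhcr7, which closes the pathway by reducing 7-dehydrocholesterol, was low in both groups, at 1.85 ± 0.429 and 2.62 ± 0.729 CPM in IL-10/Fc and PBS.

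Over all 19 enzymes the summed level was 550, 512, 671 and 589 CPM in IL-10/Fc, against 571 and 716 CPM in PBS. The sums overlapped. In the same libraries the DNA replication genes summed to 1023, 1238, 1560 and 1191 CPM in IL-10/Fc, against 1439 and 1679 CPM in PBS. A link between these sums was not tested. Of the enzymes, 8 lay higher and 11 lower, with a median log2 fold change of -0.03. Without PBS replicate 1 that median was -0.32.

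Divided by exon length, so that genes can be set side by side, Ebp was the most abundant of the 19 transcripts, at a mean of 47.3 CPM per kilobase in IL-10/Fc and 38.4 in PBS. Pmvk (17.9 and 21.5) and Acat2 (16.8 and 23.7) followed in both groups, with Cyp51 at 12.0 in IL-10/Fc and 21.2 in PBS. Sqle stood at 2.79 CPM per kilobase in IL-10/Fc and 4.57 in PBS. The enzyme before it, Fdft1, stood higher, at 13.5 in IL-10/Fc and 12.4 in PBS, and the enzyme after it, Lss, lower, at 0.424 in IL-10/Fc and 0.121 in PBS. With Lss, Tm7sf2 (0.380 in IL-10/Fc and 0.0482 in PBS) and Dhcr7 (0.319 and 0.451) were the lowest of the 19. The lengths are those of all annotated exons joined, so a gene with long unused exons is understated.

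Among the control genes, neither SREBP gene differed between groups beyond its spread. Srebf2 (chromosome 15, 82147266 to 82205376), whose product drives cholesterol genes, had 6.97, 8.09, 4.36 and 4.90 CPM in IL-10/Fc, against 4.55 and 6.83 CPM in PBS. Srebf1 (chromosome 11, 60199089 to 60222581), whose product drives mainly fatty acid genes, had 4.02, 3.10, 2.85 and 4.13 CPM in IL-10/Fc, against 2.31 and 5.03 CPM in PBS. The groups overlapped in both genes: every IL-10/Fc value of Srebf1 lay between the PBS pair, while Srebf2 had 1 of the 4 IL-10/Fc values between them, 2 above and 1 below. The intervals of the log2 fold change were -0.82 to 1.01 for Srebf2 and -1.12 to 1.01 for Srebf1, so changes of up to about that size were not detectable. SREBP activity is set largely by cleavage, which RNA counts do not measure. The escort gene Scap averaged 6.13 ± 2.87 CPM in IL-10/Fc (SD, n = 4) and 6.61 ± 0.841 CPM in PBS (SD, n = 2), with IL-10/Fc replicate 1 at 10.4 CPM and the other IL-10/Fc libraries between 4.47 and 5.02 CPM.

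Insig1 (chromosome 5, 28071363 to 28078662), which retains SCAP and is itself a target of SREBP, had 16.5, 22.7, 26.8 and 19.9 CPM in IL-10/Fc, against 26.97 and 38.8 CPM in PBS. The highest IL-10/Fc library touched the lower PBS library without passing it. Its log2 fold change of -0.61 (SE 0.25, interval -1.23 to 0.00, adjusted p = 0.394 by edgeR) shrank to -0.33 when PBS replicate 2 was left out. Its relative Insig2, which is not under the same sterol control, averaged 11.3 ± 2.42 CPM in IL-10/Fc and 13.5 ± 1.595 CPM in PBS, and its groups overlapped. Over the 5 control genes the median log2 fold change was -0.11, with 4 lower and 1 higher.

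A feature that the choice of genes did not use is the sequence ahead of their transcription starts. RefSeq promoters on GRCm38.p6, each 250 bases before and 50 after a start, were matched to 25 of the 31 genes. Sqle, Fdft1, Fdps, Stard4, Abcg1 and Npc1 had no entry. Of the 25, 21 (84.0%) held the CCAAT box bound by NF-Y, a factor that acts beside SREBP, on either strand, against 43.5% of the 9345 listed genes with an entry and 41.1% of all 27025 genes in the promoter table. The E-box CACGTG stood in 6 (24.0%), against 11.5% of the listed genes, and the GC box GGGCGG in 22 (88.0%), against 66.6%. A sterol regulatory element core, TCACNCCAC on either strand, was in 1 of the 25 (4.00%), against 1.31% of listed genes, and an LXR element core, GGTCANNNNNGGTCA, in none of the 25, against 0.0535%. Shares are of genes with a match in any of their promoters, matches are letters and not binding sites, and no match says only that these letters are not in this window.

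The bases ahead of the start are shown for a pair of genes that lay lower and a pair that lay higher in IL-10/Fc, 5′ to 3′ on the strand of the gene. Capitals mark the CCAAT box or its reverse complement in Hmgcs1, Insig1 and Soat1, the sterol regulatory element core in Hmgcs1, and the E-box in Insig1 and Abca1. No capital stretch overlaps another. Bases that GENCODE annotates as transcribed were left off.
Hmgcs1, chr13:119690101-119690350, plus strand: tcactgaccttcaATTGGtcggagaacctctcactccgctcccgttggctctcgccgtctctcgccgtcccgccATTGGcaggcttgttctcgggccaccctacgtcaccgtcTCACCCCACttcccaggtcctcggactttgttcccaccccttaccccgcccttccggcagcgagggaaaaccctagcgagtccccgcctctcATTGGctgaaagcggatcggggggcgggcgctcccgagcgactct
Insig1, chr5:28071162-28071362, plus strand: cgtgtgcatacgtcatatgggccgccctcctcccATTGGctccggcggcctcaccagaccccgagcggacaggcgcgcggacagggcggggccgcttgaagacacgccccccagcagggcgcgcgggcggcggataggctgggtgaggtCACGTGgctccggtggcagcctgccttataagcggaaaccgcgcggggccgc
Soat1, chr1:156474332-156474578, minus strand: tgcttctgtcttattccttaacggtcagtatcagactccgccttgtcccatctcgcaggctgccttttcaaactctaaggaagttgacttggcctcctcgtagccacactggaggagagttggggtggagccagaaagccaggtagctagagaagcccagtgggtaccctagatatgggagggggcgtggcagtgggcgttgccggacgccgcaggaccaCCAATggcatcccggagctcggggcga
Abca1, chr4:53159896-53160145, minus strand: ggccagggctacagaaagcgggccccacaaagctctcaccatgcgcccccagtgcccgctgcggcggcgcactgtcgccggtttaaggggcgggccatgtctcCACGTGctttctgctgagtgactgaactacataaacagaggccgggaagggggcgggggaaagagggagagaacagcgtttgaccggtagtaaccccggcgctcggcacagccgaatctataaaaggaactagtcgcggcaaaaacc
In Hmgcs1 the element core begins at position -137 from the start and lies between CCAAT boxes that begin at -176 and -45, with another at -237. The CCAAT box of Insig1 begins at -216 and its E-box at -101. Soat1 has its CCAAT box at -30 and Abca1 its E-box at -147.

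Npc2 (chromosome 12, 84754560 to 84773112), the soluble lysosomal protein that hands cholesterol to NPC1, was the most abundant of the 31 per kilobase (116 CPM per kilobase in IL-10/Fc and 86.0 in PBS). It had 577, 747, 513 and 677 CPM in IL-10/Fc, against 463 and 473 CPM in PBS. All 4 IL-10/Fc libraries lay above the PBS pair. Its log2 fold change was 0.43, with an interval of 0.03 to 0.82 (adjusted p = 0.372 by edgeR). Npc1 (chromosome 18, 12189693 to 12236400), the membrane transporter that moves cholesterol out of lysosomes, had 16.3, 8.86, 8.57 and 13.1 CPM in IL-10/Fc, against 18.8 and 4.57 CPM in PBS. The PBS pair enclosed every IL-10/Fc value, and the log2 fold change, 0.00 over all libraries, was 1.35 with PBS replicate 1 left out and -0.68 with PBS replicate 2 left out. Stard4, a cytosolic sterol carrier and a target of SREBP-2, averaged 36.97 ± 12.7 CPM in IL-10/Fc (SD, n = 4) and 50.7 ± 9.42 CPM in PBS (SD, n = 2), with overlap.

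**Figure D3:**
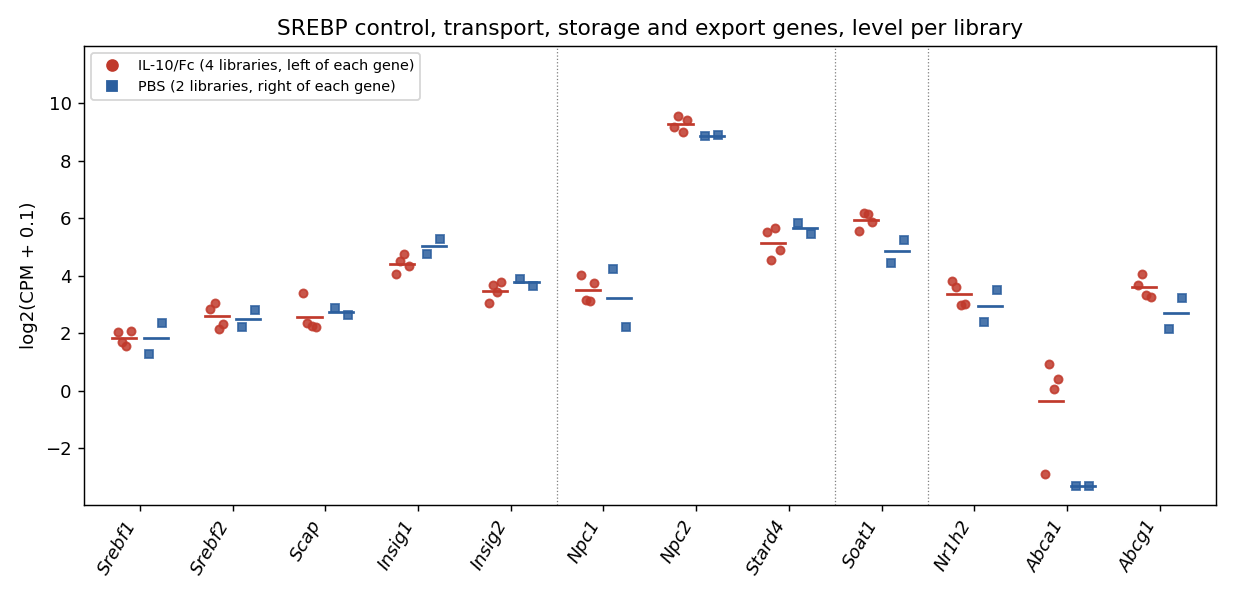
Level of the 12 genes of SREBP control, transport, storage and export, as log2(CPM + 0.1), each point a library and each bar the mean of the logs, with dotted lines between the roles. Insig1 has all IL-10/Fc points below the PBS points, and Npc2, Soat1, Abca1 and Abcg1 have them above, while the PBS points of Srebf1, Npc1 and Nr1h2 are spread.

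Storage showed the smallest unadjusted p of the 31. Soat1 (chromosome 1, 156424525 to 156474331), the enzyme that esterifies cholesterol in the endoplasmic reticulum, had 46.5, 71.8, 70.7 and 57.5 CPM in IL-10/Fc, against 21.6 and 37.8 CPM in PBS. All 4 IL-10/Fc libraries were above both PBS libraries. The log2 fold change was 1.05 (SE 0.30, 95% interval 0.33 to 1.77, adjusted p = 0.270 by edgeR). The authors' deposited table called it higher (log2 fold change 1.05, adjusted p = 0.0176), and DESeq2 fitted to the counts gave an adjusted p of 0.0165. The log2 fold change shrank to 0.70 when PBS replicate 1 was left out, with edgeR's unadjusted p over 0.05, and grew to 1.51 when PBS replicate 2 was. Macrophages also express Soat1. Of the IL-10/Fc libraries, replicate 1 had the lowest macrophage marker sum, at 713 CPM beside 681 CPM in PBS replicate 2. Ccr2 gave 460 CPM of the former sum and 189 CPM of the latter. Soat1 in these 2 libraries stood at 46.5 and 37.8 CPM. In IL-10/Fc replicates 2, 3 and 4, with marker sums of 1052, 1398 and 1430 CPM, it stood at 71.8, 70.7 and 57.5 CPM. Of those sums Ccr2 gave 467, 260 and 308 CPM. In PBS replicate 1, with a sum of 596 CPM, 360 CPM of it from Ccr2, Soat1 stood at 21.6 CPM. The dendritic cell and MHC class II sums were 172, 651, 1915 and 1011 CPM in IL-10/Fc, against 228 and 310.3 CPM in PBS. The part of other cells in the Soat1 counts was not tested.

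The exporters Abcg1 and Abca1 and the LXR receptor gene Nr1h2 had higher means in IL-10/Fc, Nr1h2 with overlap between groups. Abcg1 (chromosome 17, 31057698 to 31115777), which passes cholesterol to mature lipoproteins, had 12.8, 16.6, 10.0 and 9.55 CPM in IL-10/Fc, against 4.35 and 9.18 CPM in PBS. The groups did not overlap, with PBS replicate 2 just under the lowest IL-10/Fc library. Its log2 fold change of 0.85 (SE 0.41, interval -0.14 to 1.84, adjusted p = 0.457 by edgeR) turned to 0.41 when PBS replicate 1 was left out and to 1.49 when PBS replicate 2 was. Its levels were highest in IL-10/Fc replicates 1 and 2, with macrophage sums of 713 and 1052 CPM. They were lower in replicates 3 and 4, with sums of 1398 and 1430 CPM. The PBS libraries, with sums of 596 and 681 CPM, had the lowest levels. Of these sums Ccr2 gave 460, 467, 260 and 308 CPM in IL-10/Fc, and 360 and 189 CPM in PBS. The part of other cells in the Abcg1 counts was not tested.

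Abca1 (chromosome 4, 53030787 to 53159895), which loads cholesterol onto lipid-poor apolipoprotein, was near the limit of detection. It had 1, 52, 26 and 43 counts in IL-10/Fc, or 0.0335, 1.81, 0.937 and 1.23 CPM, against 0 counts in both PBS libraries. A count of 0 allows up to 3 counts, so its mean was at least 10.0-fold higher in IL-10/Fc against a floor of 3 counts per library, and IL-10/Fc replicate 1 lay under that floor. The gene had an adjusted p of 0.299 by edgeR, was called higher in the authors' deposited table (adjusted p = 0.0185) and by DESeq2 (adjusted p = 0.0253), and had an adjusted p of 0.531 by limma-voom. Macrophages express Abca1 at high levels. In IL-10/Fc replicate 1, with 1 count of Abca1, the macrophage markers summed to 713 CPM, of which Ccr2 gave 460 CPM. They summed to 1052 CPM in replicate 2, with 52 counts, and to 1398 and 1430 CPM in replicates 3 and 4, with 26 and 43 counts. The mannose receptor gene Mrc1, one of those markers, had 1.51, 0.0349, 5.58 and 4.10 CPM in IL-10/Fc, against 0 in both PBS libraries. No other marker of the 18 was at 0 in both. The part of other cells in the Abca1 counts was not tested. Nr1h2, the LXR beta receptor that both exporters answer to, averaged 10.4 ± 3.05 CPM in IL-10/Fc (SD, n = 4) and 8.12 ± 4.28 CPM in PBS (SD, n = 2), with overlap.

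**Figure D4:**
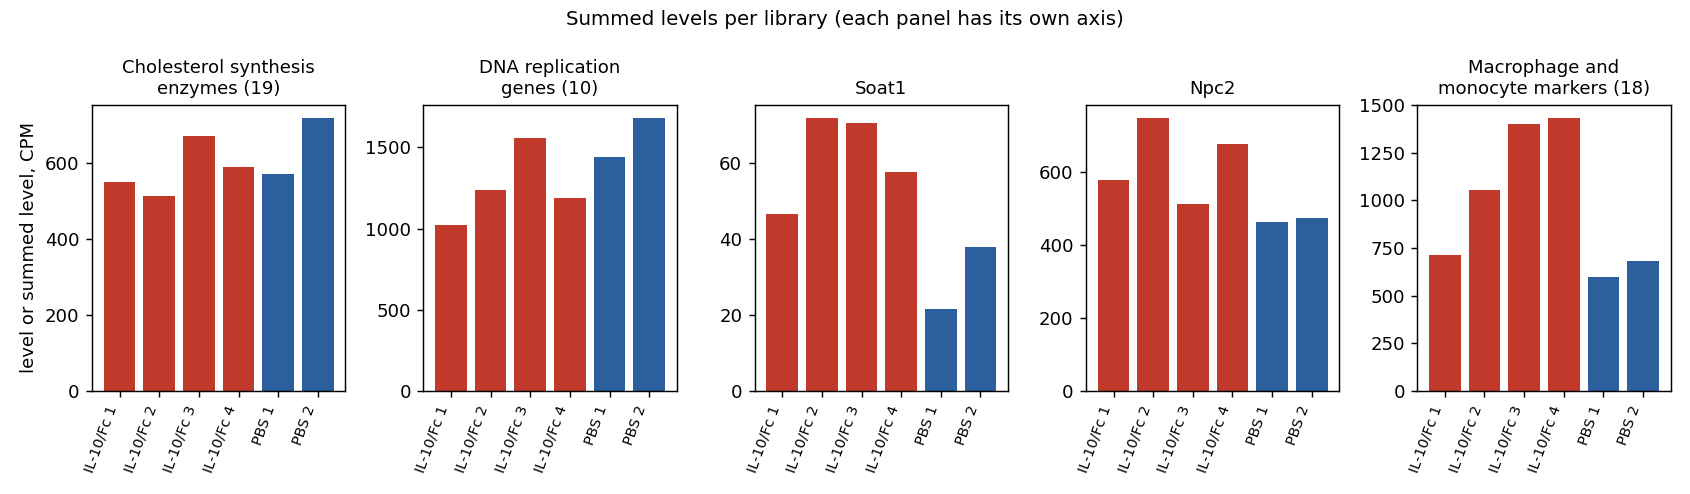
Levels per library in CPM, each panel with its own axis from 0: the summed synthesis enzymes, summed DNA replication genes, Soat1, Npc2 and summed macrophage and monocyte markers. The synthesis and replication sums overlap between groups, while Soat1 and Npc2 do not. The marker sum of IL-10/Fc replicate 1 (713 CPM) lies near the PBS sums (596 and 681 CPM). Ccr2 gave 460 CPM of it, and 360 and 189 CPM of the PBS sums.

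A further 34 genes of the pathway were looked up, of which 32 were listed and 30 tested. By edgeR none of these was called at an adjusted p under 0.05, 2 passed at an unadjusted p under 0.05 (6.67%, against 12.7% of all genes), and their median log2 fold change was -0.03, with 13 higher and 17 lower. Tmem97, a sterol-regulated membrane protein, had 17.4, 17.9, 40.0 and 41.2 CPM in IL-10/Fc, against 58.3 and 42.4 CPM in PBS, without overlap (adjusted p = 0.509 by edgeR).

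The 2 that passed unadjusted were a relative of Soat1 and a receptor, both at low levels. Soat2 (chromosome 15, 102150526 to 102163474), the other cholesterol esterifying enzyme, had 5.63, 7.39, 1.55 and 4.47 CPM in IL-10/Fc, against 0.815 and 0.457 CPM in PBS. Each IL-10/Fc library was above both PBS libraries. The log2 fold change was 2.90 (SE 0.77, adjusted p = 0.247 by edgeR), and the authors' deposited table called it higher (adjusted p = 0.00371). Lrp1, an endocytic receptor that macrophages also carry, had 1.34, 0.523, 0.937 and 1.31 CPM in IL-10/Fc, against 0.0679 and 0.131 CPM in PBS, which are 2 and 4 counts. Its adjusted p was 0.260 by edgeR and was called higher in the authors' deposited table (adjusted p = 0.0252). Beside the Soat2 levels, the macrophage sums were 713, 1052, 1398 and 1430 CPM in IL-10/Fc and 596 and 681 CPM in PBS. Ccr2 gave 460, 467, 260 and 308 CPM of these in IL-10/Fc, and 360 and 189 CPM in PBS. The part of other cells in the Soat2 and Lrp1 counts was not tested.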

How the data were processed

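Each of the 6 libraries was made with Smart-Seq2 from sorted cells of a purity above 99%, per the labels' protocols. The authors deposited whole-number counts per gene, 1 file per library and a series table with the same values. Per the submitters' processing notes the tools, named without their roles, were DESeq2, TopHat2 2.1.1, Bowtie2 2.2.9, Trimmomatic, Cuffdiff and Cufflinks 2.2.1, and the build was GRCm38 (mm10). No source used here names the tool that counted reads. The authors deposited, per gene, a log2 fold change with its standard error, their ratio (a score), a p-value, an adjusted p-value and the average normalized count (a signal), with no settings stated. Counts came from the per-library files, which match the series table in all 6 libraries. The PBS columns of that table carry other numbers than the titles, and the titles were followed.

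Of 15898 listed genes, edgeR 4.0.16 (R 4.3.3) kept 15477 by filterByExpr. TMM scaling gave factors of 0.950 to 0.983 in IL-10/Fc and 1.10 and 1.06 in PBS. The test was glmQLFit (robust) and glmQLFTest with group as the term, two-sided, with Benjamini-Hochberg adjustment at 0.05. The estimated biological coefficient of variation was 0.543. Values are TMM-scaled CPM, means ± SD, and SE is the log2 fold change over the root of F. On that scale 3 counts equal 0.0855 to 0.108 CPM in IL-10/Fc and 0.102 and 0.0984 CPM in PBS, and floors cover counting error only. Alternatives were DESeq2 1.42.0, limma 3.58.1 (voom), other scalings and filters, a replicate block and each library left out. The code was tested on simulated data. Exon lengths, overlaps and 50-base words come from GENCODE vM21 (GRCm38).

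The members and lists were chosen with earlier results of these data known. By the naming rule every member is named, and values in each library are given for members at an unadjusted p under 0.05, for those without overlap at a mean of at least 5 CPM, and for 9 fixed genes; Tm7sf2 and Cyp51 were added after their values were seen. Of the other pathway genes, those at the same limits are named, and some others are not reported here. Smart-Seq2 does not mark strand, so reads of overlapping genes cannot be told apart. Whether each library is a separate mouse is not in the labels, and the p-values may thus reflect technical spread between libraries alone.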

Additional observations from a re-analysis of the deposited data

Results flagged for a closer look

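In 3 of the 31 genes 1 of the 4 IL-10/Fc libraries stood apart, with a gap to its nearest library that took more of the group's range than Dixon's limit allows. Hmgcs1 was at 32.7 CPM in IL-10/Fc replicate 3, above the other IL-10/Fc libraries. Lss was at 2.31 CPM in IL-10/Fc replicate 1, below the others of its group. Scap was at 10.4 CPM in IL-10/Fc replicate 1, above the others. Chance flags about 1 in 20 such groups.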

How the results depend on the processing

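The count of cholesterol genes past the adjusted threshold was 0 in every setting other than DESeq2's Wald test, which called 2 of the 31 (Soat1 at a log2 fold change of 1.05 and Abca1 at 7.35, both higher in each setting that tested them). At an unadjusted p under 0.05 the count was 8 (25.8%, against 12.7% of all genes), with the replicate block 5 (16.1%, against 7.80%), and 4 to 6 with single libraries left out (12.9% to 19.4%, against 9.44% to 13.9% of all genes). In other settings the count or share was larger: 11 with DESeq2's Wald test (35.5%, against 15.9%) and 9 without the robust option (29%, against 12.9%). At 20 CPM in 2 libraries it was 6 of the 15 tested (40%, against 20% of all genes). Over all genes 1 passed the adjusted threshold, against 757 with DESeq2's Wald test, 60 at 20 CPM in 2 libraries, and 0 with library-size scaling, without the robust option or with the replicate block. With single libraries left out 0 to 16 passed.

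Scaling by library size shifted the median of all genes by -0.17 on the log2 scale. The SREBP control median was then -0.28, and Ggps1 (-0.025), Fdft1 (-0.039), Nsdhl (-0.062), Srebf2 (-0.073) and Npc1 (-0.19) turned sign, of which Ggps1, Fdft1, Nsdhl and Srebf2 kept it relative to that shift. With the replicate block, in which the group difference rests on replicates 1 and 2 of each group, SREBP control had a median of 0.049 and uptake and transport of 0.37, and Fdft1 (-0.11), Srebf1 (0.049) and Scap (0.14) turned sign. Same-numbered libraries correlated at 0.06 and 0.01 in their deviations from the group means, so the numbers were not taken to pair the libraries. By limma-voom Mvd (0.058) and Srebf1 (0.034) turned sign. The cause of these changes was not tested.

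The median of the squalene and sterol steps, 0.11, was -0.062 with library-size scaling, -0.054 at 20 CPM and -0.11 with the replicate block, and that of the mevalonate steps was -0.66 with the block. With single libraries left out, the median log2 fold change ranged from -0.61 to -0.20 for the mevalonate steps, -0.062 to 0.13 for the squalene and sterol steps, -0.63 to 0.41 for uptake and transport, 0.41 to 1.49 for export, -0.32 to 0.022 for the synthesis enzymes and -0.23 to 0.012 for SREBP control. Signs turned within these ranges for Mvd (-0.62 to 0.99), Fdft1 (-0.089 to 0.37), Msmo1 (-0.36 to 0.13), Nsdhl (-0.026 to 0.26), Sc5d (-0.15 to 0.093), Srebf1 (-0.51 to 0.61), Srebf2 (-0.17 to 0.42), Scap (-0.49 to 0.027), Npc1 (-0.68 to 1.35) and Nr1h2 (-0.10 to 1.03). The other 20 of the 31 genes kept their direction in every setting in which they were tested, and Ggps1 in all but library-size scaling. Where a PBS library was left out, the lone one was given the spread of the IL-10/Fc group. Depth limits Abca1, Tm7sf2, Lss and Dhcr7 most.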
